A study of Xenopus laevis with 6 samples.

Results

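Proton pumps, ion ATPases and carbonic anhydrases were measured in explants from the animal pole of Xenopus laevis frog embryos, NICD-injected and untreated. Members were taken by name from the array's platform annotation: subunits and accessory proteins of the V-ATPase, P-type pumps for sodium, calcium and protons, and numbered carbonic anhydrases. The rule found 37 genes among 7531 distinct gene symbols, of which 21 belong to the V-ATPase, 12 to the P-type ATPases and 4 to the carbonic anhydrases. Each gene was represented by the probe set with the highest mean signal. This species carries homeologous copies of many genes, told apart by the endings .L and .S, and a probe set named for one copy may also detect the other.

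The NICD group held 2 samples, explants of embryos injected with NICD, the intracellular domain of the Notch receptor, which enters the nucleus and activates target genes. The untreated group held 4 samples labelled untreated, and the series design text calls these explants pooled. In both groups the animal pole, the upper part of the embryo that forms epidermis when cultured alone, was cut out at stage 8 and kept until sibling embryos were at stage 20. The labels give neither strain nor dose. With no control injection among the samples, NICD and injection cannot be told apart. From each sample 1 µg of total RNA was amplified and hybridised to 1 Affymetrix Xenopus laevis array per sample. Since no label says that samples of a group came from separate batches of embryos, the p-values cover the spread among these 6 samples, and that spread may be technical.

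The V-ATPase is a rotary proton pump. Its peripheral V1 sector hydrolyses ATP and its membrane V0 sector carries protons; it acidifies endosomes and lysosomes in every cell and, on the surface of specialised epithelial cells, secretes acid. P-type ATPases pass through a phosphorylated intermediate and include the sodium-potassium pump, the proton-potassium pumps and the calcium pumps of the endoplasmic reticulum and plasma membrane. Carbonic anhydrases convert carbon dioxide and water to bicarbonate and protons and so feed acid and base transport. In the larval frog skin, surface transport of acid and base is concentrated in ionocytes. These scattered cells exchange ions with the water and depend on the transcription factor foxi1.

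Median array signals lay between 153.9 and 177.4, and the authors' scaling had left the trimmed mean at 500.1 on each of the 6 arrays. The arrays were processed on 2 days. NICD 1, untreated 1 and untreated 2 were run on day 1, and NICD 2, untreated 3 and untreated 4 on day 2, so each day held both groups. Module 4 of the fluidics station took both NICD arrays and none of the untreated ones, and its effect and that of NICD cannot be told apart. The ratio of 3' to 5' signal of gapdh, a sign of RNA quality, was 4.21 in NICD 1 and 2.98 in NICD 2, against 2.7 to 3.54 in untreated arrays; its part in the results was not tested.

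Most acid and ion transport genes that changed were lower in NICD explants. Testing needed a signal over the array's 40th percentile on 2 or more arrays, which 33 of the 37 members had. Of the 33, 19 fell and 4 rose at an adjusted p under 0.05 in limma, and 10 did not pass. Over all 10368 probe sets tested the call rate was 31.6%, with 16.2% lower and 15.3% higher. With 1 probe set per gene symbol, the choice made for the members, it was 31.3%, with 14.6% lower and 16.7% higher. Decreases with a log2 change of -1 or below were called for 12 of the 33 tested members. The share was 12.2% of all probe sets tested and 11% with 1 per symbol. In RNA of whole explants, fewer cells of a type and less RNA per cell cannot be told apart. The median log2 change was -0.83 over the tested members (-0.80 on day 1 and -0.95 on day 2) and 0.05 over all probe sets tested. Changes are differences of log2(signal + 32), NICD minus untreated, and understate the change of genes whose signal in either group is low.

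**Figure D1:**
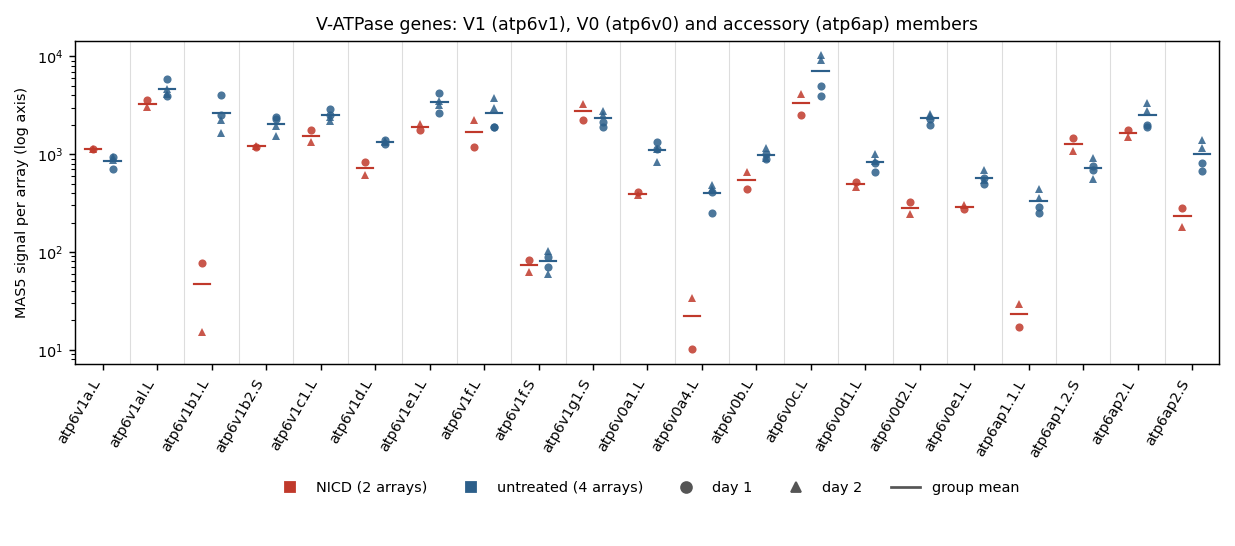
MAS5 signal (log axis) of the 21 V-ATPase genes in each array, with NICD explants left of untreated explants; circles are day 1, triangles day 2 and bars the group means. For atp6v1b1.L the NICD arrays read 78 and 15.3 and the lowest untreated array reads 1643.6, whereas for atp6v1g1.S the groups overlap.

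Of 20 V-ATPase genes tested, 13 fell, 1 rose and 6 did not pass (16.2% lower and 15.3% higher over all probe sets tested). The decreases ran from 1.62-fold in mean signal (atp6v1c1.L) to at least 23.1-fold (atp6v1b1.L). A bound of this kind is given where both NICD arrays read below the 40th percentile of their array (112 in NICD 1 and 102 in NICD 2), and sets them at that level against the untreated mean of log2 signals. Those of atp6v1b1.L, atp6v0a4.L and atp6v0d2.L, the largest on the log2 scale, were in genes whose mammalian counterparts form the acid-secreting pump of specialised cells. The median log2 change of the subgroup was -0.81, with -0.83 on day 1 and -0.95 on day 2. Leaving out NICD 1 left 8 members lower and leaving out NICD 2 left 7, with the member higher lost in both cases.

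In the V1 sector, atp6v1b1.L changed most. It encodes the B subunit isoform that in human kidney belongs to the pump of acid-secreting intercalated cells, and its loss in humans causes distal renal tubular acidosis. Its signal was 78 and 15.3 in NICD explants, against 4015.4, 2544.9, 2229.2 and 1643.6 in untreated explants. The groups lay far apart, with the gene at least 23.1-fold lower in NICD explants. The log2 change was -5.12 ± 0.40 (SE; adjusted p = 1.92e-05 in limma), with -4.88 on day 1 and -5.36 on day 2. The other B subunit gene, atp6v1b2.S, whose mammalian counterpart is widely expressed, averaged 1208.4 ± 14.28 (SD, n = 2) in NICD and 2051.6 ± 384.4 (SD, n = 4) in untreated explants. It fell by 0.73 on the log2 scale (adjusted p = 0.0386 in limma). This call was lost under median centring, with the mean over the gene's probe sets (-0.23), and without either NICD array or untreated 1, 2 or 4. A second atp6v1b2.S probe set changed by 0.27 and did not pass.

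The A subunit, which holds the catalytic ATP site together with B, was measured by atp6v1a.L and atp6v1al.L, and neither passed. The atp6v1al.L signal was 3553.7 and 3040.7 in NICD explants, against 3949.7, 5818.0, 4116.1 and 4683.1 in untreated explants, a log2 change of -0.48. The lowest untreated array still lay above both NICD arrays. The atp6v1a.L probe set used here averaged 1128.8 in NICD and 858.7 in untreated explants (log2 change 0.39), and a second probe set of the gene had the opposite sign (-0.31). The direction of atp6v1a.L thus depends on the probe set.

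Of the V1 subunits outside A and B, C, D and E fell, while F and G did not pass. The peripheral stalk subunit E, atp6v1e1.L, read 1776.2 and 2056.5 in NICD explants, against 4224.6, 2643.2, 3525.9 and 3151.0 in untreated explants. All untreated arrays were above both NICD arrays, and the gene fell by 0.79 ± 0.23 (SE) on the log2 scale (adjusted p = 0.0251 in limma). Subunit D of the central rotor, atp6v1d.L, fell by 0.89, and subunit C, atp6v1c1.L, which links the sectors, by 0.69. Without NICD 2 the calls for all 3 ended, and that for atp6v1e1.L also ended without NICD 1 or untreated 1, and that for atp6v1c1.L without untreated 1, 2 or 3. Of the other probe sets, 3 for atp6v1c1.L and 1 for atp6v1d.L pointed the same way (-0.63, -0.86 and -0.78, and -1.22). The one at -0.63 did not pass (adjusted p = 0.0529 in limma). It and the one at -1.22 are named for the same targets as the probe sets used, so they may not be independent of these. Those at -0.86 and -0.78 are named for the same target as each other. Subunit F, atp6v1f.L, missed the threshold at -0.63 (limma, adjusted p = 0.194) but passed it with the processing day as a block (adjusted p = 0.0173 in limma). Subunit G, atp6v1g1.S, had a log2 change of 0.22 and did not pass. The copy atp6v1f.S was too dim to be tested, at 83.8 and 62.2 in NICD and 60.2 to 103.5 in untreated explants.

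In the V0 sector 6 of 7 members fell and none rose, against 16.2% lower and 15.3% higher over all probe sets tested. The large a subunit forms the path of protons through the membrane and steers the pump to its place in the cell. Its atp6v0a4.L isoform, which in humans is paired with the kidney B subunit and mutated in the same renal acidosis, read 10.1 and 33.9 in NICD explants. Untreated explants read 408.5, 252.3, 440.1 and 486.5. The gene was at least 3.61-fold lower in NICD explants, with a log2 change of -2.99 ± 0.30 (SE; adjusted p = 7.61e-05 in limma). The more widely used atp6v0a1.L read 410 and 381.1 in NICD explants, against 1320.4, 1132.7, 822.7 and 1122.1 in untreated explants, also without overlap. Its log2 change was -1.39 ± 0.24 (SE; adjusted p = 0.00192 in limma).

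The d subunit couples the rotor to V1 and has paired isoforms too. The atp6v0d2.L signal, from the isoform known in mouse for kidney and osteoclasts, was 325.3 and 242.1 in NICD explants, against 2272.8, 2007.0, 2551.8 and 2461.0 in untreated explants. The untreated arrays were close to each other, with a mean 8.19 times that of NICD explants. The gene fell by 2.91 ± 0.22 (SE) on the log2 scale (adjusted p = 1.78e-05 in limma; -2.60 on day 1 and -3.21 on day 2). Its counterpart atp6v0d1.L averaged 490.2 ± 36.13 (SD, n = 2) in NICD and 829.3 ± 148.5 (SD, n = 4) in untreated explants and fell by 0.71, with a like value in its second probe set (-0.70). The call for atp6v0d1.L (adjusted p = 0.0444 in limma) ended with no filter, with array weights and without any one of NICD 1, NICD 2, untreated 2, untreated 3 and untreated 4.

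The proton-carrying ring is built of the c subunit, atp6v0c.L, and the related c'' subunit, atp6v0b.L. The atp6v0c.L probe set read 2538.1 and 4100.2 in NICD explants, against 3933.6, 5014.7, 10229.7 and 9252.3 in untreated explants. The groups overlapped, the day 2 untreated arrays exceeded those of day 1 (by 1.13 on the log2 scale), and the change of -1.02 missed the threshold (adjusted p = 0.0684 in limma). All 3 other atp6v0c.L probe sets fell, with log2 changes of -1.97, -1.65 and -1.18. Those at -1.65 and -1.18 are named for the same target as the probe set used, so they may not be independent of it. The mean over the gene's probe sets passed (-1.46, adjusted p = 0.000921 in limma). With the processing day as a block the probe set used here passed as well, at an adjusted p of 0.00133 in limma. The c'' gene atp6v0b.L fell by 0.83, with 548.7 ± 153.3 (SD, n = 2) in NICD and 987.8 ± 126.2 (SD, n = 4) in untreated explants, and the small e subunit atp6v0e1.L by 0.91. Both of these calls ended without NICD 1, that for atp6v0e1.L also without NICD 2 and that for atp6v0b.L without untreated 3.

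Of the 4 genes for accessory proteins of the pump, 2 fell, 1 rose and 1 did not pass. Over all probe sets tested, 16.2% were lower and 15.3% higher. ATP6AP1, also called Ac45, helps to assemble V0 and guides the pump, and ATP6AP2 is the membrane protein known as the prorenin receptor. The atp6ap1.1.L signal was 17.1 and 29.3 in NICD explants, against 287.7, 247.6, 355.8 and 436.4 in untreated explants. The gene was at least 3.03-fold lower in NICD explants, with a log2 change of -2.70 ± 0.27 (SE; adjusted p = 6.79e-05 in limma). Its relative atp6ap1.2.S was higher in NICD explants, with 1273.2 ± 274.4 (SD, n = 2) in NICD and 730.4 ± 146.8 (SD, n = 4) in untreated explants. It rose by 0.78 (adjusted p = 0.0406 in limma; 1.00 on day 1 and 0.56 on day 2), a call lost with no filter on low values and without NICD 1, NICD 2, untreated 1, untreated 2 or untreated 4.

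For ATP6AP2 both copies were measured. The atp6ap2.S signal was 283.9 and 181.3 in NICD explants, against 680.2, 817.6, 1412.7 and 1151.5 in untreated explants. The groups did not overlap, and the day 2 untreated arrays were the highest. The log2 change was -1.96 ± 0.32 (SE; adjusted p = 0.00127 in limma), with -1.30 on day 1 and -2.62 on day 2. The other copy, atp6ap2.L, averaged 1629.3 in NICD and 2496.2 in untreated explants and did not pass (-0.57, adjusted p = 0.129 in limma; -0.15 on day 1, with a larger decrease on day 2).

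**Figure D2:**
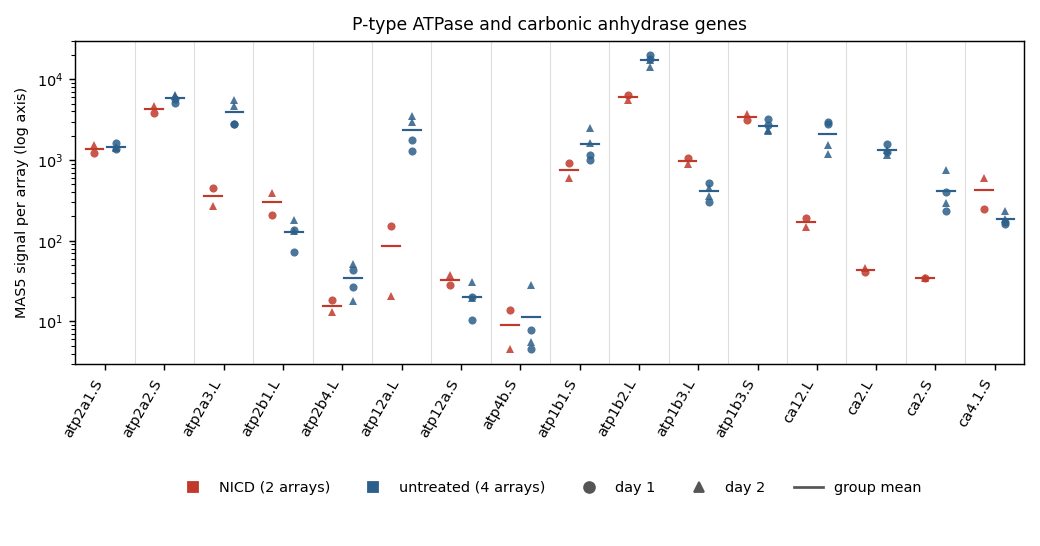
MAS5 signal (log axis) of the 12 P-type ATPase and 4 carbonic anhydrase genes in each array, with NICD explants left of untreated explants; circles are day 1, triangles day 2 and bars the group means. The NICD arrays lie below all untreated arrays for atp2a3.L, atp2a2.S, atp12a.L, atp1b1.S, atp1b2.L, ca12.L, ca2.L and ca2.S, and above them for atp1b3.L, atp2b1.L and ca4.1.S.

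P-type ATPase genes went both ways, as did all probe sets tested (16.2% lower and 15.3% higher). Of 9 tested, 3 fell, 2 rose and 4 did not pass, with a median log2 change of -0.44 (-0.27 on day 1 and -0.43 on day 2). With the processing day as a block 5 were lower, atp1b1.S (adjusted p = 0.0388 in limma) and atp2a2.S (adjusted p = 0.0349 in limma) joining.

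The non-gastric proton-potassium pump had the largest decrease. Its catalytic subunit gene atp12a.L read 152.5 in NICD 1 and 20.8 in NICD 2, against 1281.0, 1764.3, 3498.5 and 2949.0 in untreated explants. NICD 2 lay below its array's 40th percentile and NICD 1 above it. Both NICD arrays were below all untreated arrays but were far from each other (NICD 2 minus NICD 1, -1.81 on the log2 scale), and the day 2 untreated arrays were the higher ones. The log2 change was -4.50 ± 0.51 (SE; adjusted p = 0.000147 in limma), with -3.06 on day 1 and -5.94 on day 2. The copy atp12a.S and the gastric pump's beta subunit gene atp4b.S were not tested, with signals of at most 38.1 and 28 on any array.

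Beta subunits, which carry sodium and proton-potassium pumps to the membrane, were the only part of the sodium pump among the members. The atp1b2.L signal was 6366.9 and 5576.6 in NICD explants, against 19763.1, 17799.0, 14074.3 and 17535.3 in untreated explants. The groups were well separated and NICD explants kept 34.5% of the untreated mean. The gene fell by 1.52 ± 0.19 (SE) on the log2 scale (adjusted p = 0.000234 in limma), almost equally on both days (-1.55 and -1.49).

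The atp1b3 genes went the other way or did not pass. The atp1b3.L signal was 1063.3 and 894 in NICD explants, against 299, 523.3, 449.5 and 358.1 in untreated explants, without overlap. It rose by 1.22 ± 0.26 (SE; adjusted p = 0.00562 in limma) and was higher on both days. The atp1b3.S signal was 3130.6 and 3707.0 in NICD explants, against 2679.4, 3208.8, 2331.3 and 2273.1 in untreated explants. Those groups overlapped, because untreated 2 lay above NICD 1, and the change of 0.39 did not pass. A second atp1b3.S probe set rose by 0.70 (adjusted p = 0.0498 in limma). It is named for the same target as the atp1b3.L probe set, so its rise may repeat that of atp1b3.L. The atp1b1.S gene averaged 762.5 in NICD and 1567.2 in untreated explants, and its log2 change of -0.95 was -0.20 on day 1 and -1.71 on day 2 (adjusted p = 0.0683 in limma).

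Calcium pumps also differed among themselves. SERCA pumps, encoded by the atp2a genes, refill the endoplasmic reticulum with calcium, and atp2a3 is the isoform found in many epithelia and blood cells of mammals. The atp2a3.L signal was 444.4 and 272.7 in NICD explants, against 2782.0, 2831.4, 4680.0 and 5587.3 in untreated explants. NICD explants kept 9.03% of the untreated mean, a log2 change of -3.33 ± 0.33 (SE; adjusted p = 7.39e-05 in limma), with -2.57 on day 1 and -4.08 on day 2. The widely expressed atp2a2.S read 3851.6 and 4666.7 in NICD explants, against 5622.1, 5026.1, 6423.8 and 6157.2 in untreated explants. All untreated arrays lay above the NICD arrays, but the change of -0.44 did not pass (adjusted p = 0.111 in limma), and a second, dimmer probe set of the gene fell by 1.46 (adjusted p = 0.00627 in limma). The muscle SERCA gene atp2a1.S averaged 1383.2 in NICD and 1462.5 in untreated explants (-0.09) and was the only tested member whose sign differed between the days.

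The plasma membrane calcium pump gene atp2b1.L rose. It read 208.6 and 389.8 in NICD explants, against 71.6, 134.2, 182.1 and 131.8 in untreated explants. The NICD arrays were above all untreated arrays, with NICD 1 only a little above untreated 3. The log2 change was 1.02 ± 0.33 (SE; adjusted p = 0.0391 in limma), and the call was lost with no filter on low values and without NICD 2, untreated 1, untreated 2 or untreated 4; without NICD 2 the change was 0.62. The related atp2b4.L was not tested, at 18.4 and 13 in NICD and 17.7 to 50.9 in untreated explants.

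All 4 carbonic anhydrase genes passed the test, 3 lower and 1 higher, against 16.2% lower and 15.3% higher over all probe sets tested. The cytosolic enzyme, carbonic anhydrase 2, was measured through both copies. The ca2.L signal was 40.9 and 45.6 in NICD explants, against 1578.9, 1254.2, 1143.3 and 1344.5 in untreated explants. Replicates were close within each group and the gene was at least 12.4-fold lower in NICD explants. It fell by 4.17 ± 0.22 (SE) on the log2 scale, with the smallest adjusted p of the members (4.28e-06 in limma). The ca2.S signal was 34.2 and 34.8 in NICD explants, against 405.1, 230.9, 290.1 and 749.3 in untreated explants. The untreated arrays of ca2.S varied more, yet none came near the NICD arrays. The gene was at least 3.53-fold lower in NICD explants, and the log2 change was -2.63 ± 0.38 (SE; adjusted p = 0.000673 in limma).

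The membrane-bound enzymes, which act outside the cell, did not move together. The transmembrane enzyme gene ca12.L read 192.3 and 149 in NICD explants, against 2985.9, 2760.6, 1173.1 and 1528.9 in untreated explants. NICD explants kept 8.08% of the untreated mean, a log2 change of -3.31 ± 0.37 (SE; adjusted p = 0.000138 in limma), with -3.69 on day 1 and -2.92 on day 2. The lipid-anchored enzyme gene ca4.1.S rose by 0.95 ± 0.32 (SE; adjusted p = 0.0443 in limma), with 420.4 ± 244 (SD, n = 2) in NICD and 186.4 ± 31.22 (SD, n = 4) in untreated explants. Its day values were 0.50 and 1.39, and the call was lost with no filter and without NICD 2, untreated 1, untreated 2 or untreated 3; without NICD 2 the change was 0.37 (adjusted p = 0.456 in limma). A second ca4.1.S probe set was at 22.3 or below on every array and was not tested.

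**Figure D3:**
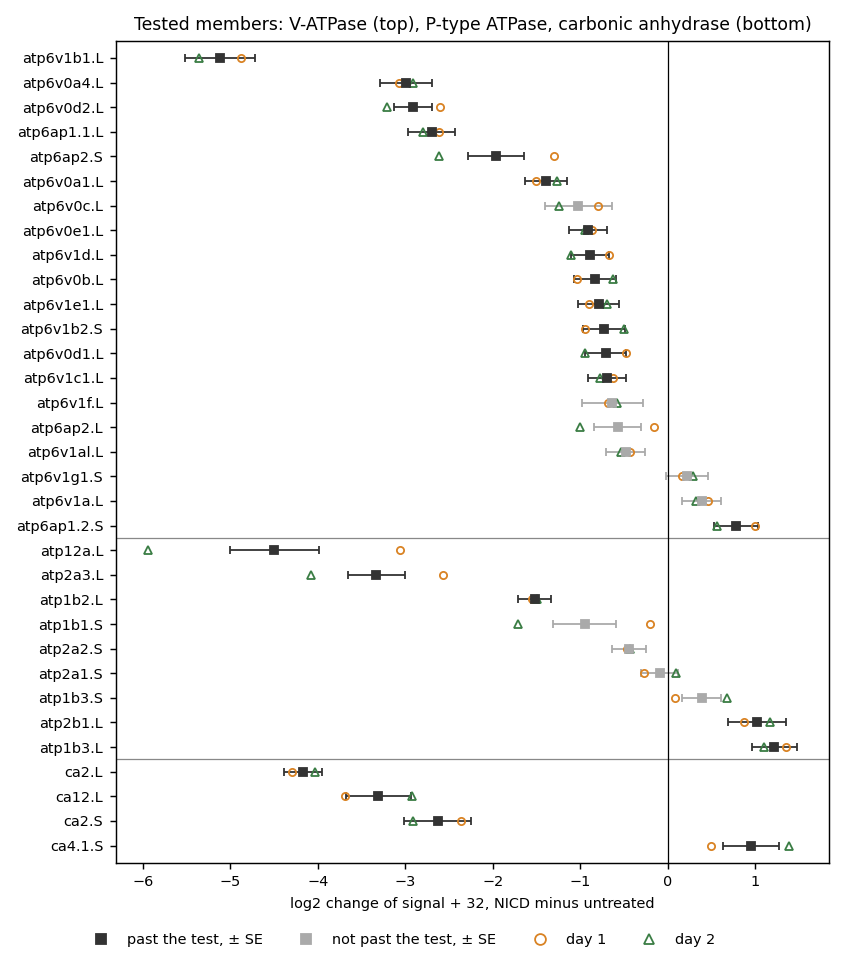
Log2 change of signal + 32, NICD minus untreated, for the 33 tested members (squares with SE; dark past the test, grey not), with the value of each processing day as an open circle (day 1) or triangle (day 2). Changes run from -5.12 (atp6v1b1.L) to 1.22 (atp1b3.L), and the days lie farthest apart for atp12a.L.

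Related members of a pump could change by unequal amounts. For 10 pairs of related genes the ratio of signal + 32 within each array was taken, which removes most of an array-wide scaling; since the pairs were set with the values known, the ratios are given without a test. In all 10 pairs the NICD arrays lay apart from the untreated arrays, below them in 9 and above them in 1. Single probe sets did not overlap in 51% of all those tested, and the choice of pairs with values known largely fixes this count. The log2 ratio of atp6v1b1.L to atp6v1b2.S was -3.48 and -4.72 in NICD explants, against -0.25 to 0.74 in untreated explants, a shift of -4.39. That of atp6v0d2.L to atp6v0d1.L was -0.62 and -0.86 in NICD explants, against 1.28 to 1.75 in untreated explants (shift -2.20).

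For atp6v0a4.L to atp6v0a1.L the shift was -1.60. The size of the shift is uncertain for the pairs with atp6v1b1.L, atp6v0a4.L, atp6ap1.1.L or ca2, whose NICD signals were below the 40th percentile of both arrays. In the B, a and d subunit pairs of the V-ATPase the numerator is the isoform known from acid-secreting cells of mammals. The shift was -3.48 for atp6ap1.1.L to atp6ap1.2.S, -1.39 for atp6ap2.S to atp6ap2.L and -0.87 for atp6v1al.L to atp6v1a.L, the last open to the disagreement of the atp6v1a.L probe sets. Outside the V-ATPase it was -2.88 for atp2a3.L to atp2a2.S, -2.75 for atp1b2.L to atp1b3.L and -5.12 for ca2.L to ca4.1.S. Second probe sets of atp2a2.S (-1.46) and atp6v1b2.S (0.27) changed unlike those used (-0.44 and -0.73). The size of the shift in the pairs with these genes thus also depends on the probe set. The pair that shifted upward was ca2.S to ca2.L, with -0.14 and -0.22 in NICD explants, against -2.29 to -0.82 in untreated explants (shift 1.54). Both copies of ca2 read under 46 in NICD explants, close to the 32 added before the log, which draws their ratio toward 0. Signals of different probe sets do not measure relative transcript amounts, so only the shift of a ratio between groups carries information.

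**Figure D4:**
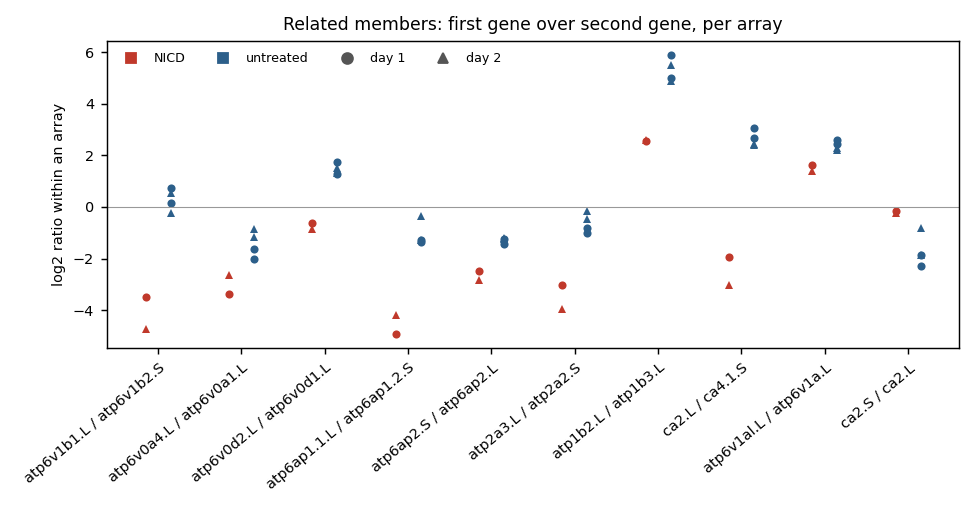
Log2 ratio of signal + 32, first to second gene, of each of 10 pairs within each array, with NICD explants left of untreated explants (circles day 1, triangles day 2). Both NICD points lie below all 4 untreated points in every pair but ca2.S to ca2.L, where they lie above.

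The untreated arrays differed in how closely they agreed from gene to gene. The coefficient of variation over the 4 untreated arrays had a median of 18.7% over the tested members, against 21.2% over all probe sets tested, with the lowest value for atp6v1d.L (3.49%) and the highest for ca2.S (55.4%). Part of this variation ran with the processing day. Untreated explants of day 2 exceeded those of day 1 by 1.13 for atp6v0c.L, 1.08 for atp12a.L, 0.90 for atp1b1.S and 0.86 for atp2a3.L on the log2 scale, and ca12.L ran the other way (-1.08). All 23 members that passed the test had the same sign on both days. The test used the arrays of both days, so this is not independent of it. Of all 10368 probe sets tested, 3729 were lower on both days and 4316 higher on both. Groups did not overlap for 28 of the 33 tested members, against 51% of all probe sets tested and 51.5% with 1 per symbol.

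**Figure D5:**
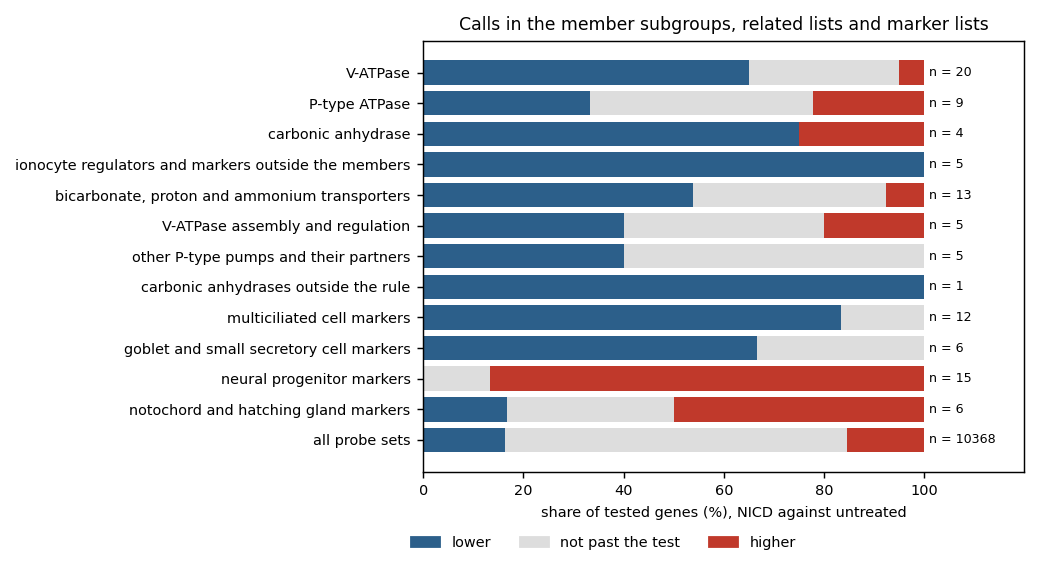
Share of tested genes called lower (blue), not past the test (grey) and higher (red) in NICD explants, for the 3 member subgroups, related and marker gene lists and all probe sets. Of the V-ATPase genes 13 of 20 are lower, against 16.2% of all 10368 probe sets.

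Genes that work with these pumps and enzymes were taken from lists that exclude the members. Their counts stand beside a call rate of 31.6% over all probe sets tested, with 16.2% lower and 15.3% higher. Of 13 tested genes listed for bicarbonate, proton, chloride or ammonium transport, 7 fell and 1 rose, with a median log2 change of -0.82. The ammonium transport genes rhag.L and rhbg.S were not among them, being too dim to be tested. The 13 genes include slc16a monocarboxylate carriers, of which slc16a3.L (-0.75) and slc16a6.L (-0.96) fell and slc16a1.S (0.82) and slc16a3.S (0.08) did not pass. The decreases were led by slc26a4l.L, related to the anion exchanger pendrin (-4.96), slc4a1.L, the chloride-bicarbonate exchanger known from red cells and kidney (-1.91), clcn3.S, an endosomal chloride-proton exchanger (-1.67), and slc4a11.L (-1.36). The gene that rose was slc9a3r1.S (0.94), a scaffold for sodium-proton exchangers, named after its value was seen. Of 5 genes for V-ATPase assembly and regulation 2 fell, both copies of rnasek (rnasek.L -1.86, rnasek.S -1.11), a small membrane protein bound to V0, and 1 rose. That was oxr1.L (2.57), whose yeast relative takes the pump apart, with 622.3 and 675 in NICD explants, against 57.6 to 118 in untreated explants. The other 2, vma21.L (-0.08) and rogdi.S (0.44), did not pass, and the median log2 change of these 5 genes was -0.08. So few genes do not set this list apart from the shares over all probe sets tested.

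Of 5 tested genes for other P-type pumps and their partners 2 fell, against 16.2% of all probe sets tested. So few genes do not set the list apart from that share. The 2 were tmem30b.L (-1.06) and tmem30a.S (-0.96), which encode beta subunits of lipid flippases. The brighter copy tmem30a.L averaged 1048.4 in NICD and 973.6 in untreated explants (log2 change 0.05) and did not pass; it is named after its value was seen. The mitochondrial carbonic anhydrase ca5b.L fell by 0.69 and was the only tested gene of the carbonic anhydrase list outside the members.

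Most tested markers of the skin's cell types also fell, while most neural progenitor markers rose. Over all probe sets tested, 16.2% were lower and 15.3% higher. All 5 ionocyte regulators and markers tested outside the members fell, with a median log2 change of -3.70, led by foxi1.L (-5.26), slc26a4l.L (-4.96), which stands on 2 of the lists, ubp1.L (-3.70) and tfcp2l1.S (-2.62). The list holds 14 names, of which 5 were found on the array, and tfcp2l1 counts with both copies. The summed signal of the 6 ionocyte probe sets was 1574.6 and 979 in NICD explants, against 11235.3 to 13005.0 in untreated explants. Most of the NICD sum came from tfcp2l1.S (833.7 and 660.9) and tfcp2l1.L (621.4 and 288.2). The NICD arrays read 4 to 50.2 for foxi1.L, slc26a4l.L and ubp1.L. No probe set of the 6 was listed at 0, and rhbg.S was at 6.5 or below on every array of both groups. Of the multiciliated cell markers 10 of 12 tested fell, with a median log2 change of -2.41 and a summed signal of 17915.8 and 14448.4 in NICD explants, against 31531.2 to 43671.2 in untreated explants. Most of the NICD sum came from the tubulin gene tubb4b.L, which did not pass (-0.35), and without it the sum was 4027.9 and 2337.3 in NICD explants, against 19221.0 to 21479.7 in untreated explants. Of the goblet and small secretory cell markers 4 of 6 tested fell, with a sum of 6658.8 and 2703.2 in NICD explants, against 36431.9 to 56366.7 in untreated explants. The 4 were itln1.L (-5.96), otogl2.L (-4.27), agr2.L (-3.08) and agr2.S (-1.62), and xbp1.L did not pass (-0.82). A fall of the small secretory cell markers was not seen: foxa1.S did not pass (-0.01), and slc18a2.L and tph1.L were too dim to be tested. Of the neural progenitor markers 13 of 15 tested rose, with a sum of 37894.2 and 45128.9 in NICD explants, against 2693.6 to 3283.4 in untreated explants. The list holds 3 hes5 genes, known as direct Notch targets. Without them 10 of 12 rose, and the sum was 24179.6 and 24789.4 in NICD explants, against 2599.0 to 3252.3 in untreated explants. Of this NICD sum, gmnn.L gave 4308.4 and 4924.0 and gmnn.S 4003.3 and 6592.1. The genes pax6.L (0.27) and msi1.S (0.75) did not pass, and ncam1.L and ncam1.S were too dim to be tested. Of the notochord and hatching gland markers tested, 3 of 6 rose and 1 fell. Those that rose were the notochord genes not.L (4.97), tbxt.S (2.26) and not.S (1.62), and the one that fell was the hatching gland gene astl2d.1.L (-3.16). Also on the list, shh.L, col2a1.S, foxa4.L and foxa4.S were too dim to be tested, so the rise rests on the not copies and tbxt.S. The list also holds ag1, known as a cement gland gene, and both ag1 probe sets did not pass. The part of these shifts in the changes of the pump and carbonic anhydrase genes was not tested.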

How the data were processed

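Values were MAS5 signal intensities deposited by the authors, linear and 1 per probe set and array; MAS5 is named in the submitters' processing notes without a version. MAS5 subtracts mismatch signals, which makes low values noisy. The deposited settings files, per the file headers, gave processing day, chip lot and fluidics module.

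Of 15611 probe sets, 120 controls were left out. Platform annotation gave 1 symbol to 9304 of the other 15491, several to 195 and none to 5992; updating symbols through the gene number (RefSeq table of Xenopus_laevis_v10.1) changed no member. The 37 members had 51 probe sets, and 10 members had more than 1. Members, gene lists and pairs were chosen with earlier results of these data known. No sequence or coordinate is given.

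The log2(signal + 32) values of 10368 probe sets were fitted in limma 3.58.1 (R 4.3.3; lmFit, eBayes with trend, 2-sided) without covariates and adjusted by the Benjamini-Hochberg method over all of them, with a threshold of 0.05. The procedure was tested on simulated data. All arrays of both groups entered the fit, and 2 and 4 arrays limit its precision. Values of every array are printed for members past the test with a log2 change of at least 1 in size. They are also printed for the 3 members per subgroup with the highest mean. Up to 4 members of each other list past the test are named, for the lists of pump-related, ionocyte, secretory and notochord genes. Singled out after their values were seen were tubb4b.L, tfcp2l1.L, vma21.L, rogdi.S and the slc16a, rhag, rhbg, gmnn, hes5 and ag1 genes. So were the uncalled neural, secretory and notochord markers. Alternatives changed the scaling (quantile, median), the pseudocount (1, 80), the filter (none, or the 60th percentile), the trend, array weights and blocks (replicate number, day), or left out 1 array at a time, used each day alone, the mean over probe sets and updated symbols. Tables and plots came from pandas 2.3.3 and matplotlib 3.10.9 (Python 3.11.15).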

Additional observations from a re-analysis of the deposited data

How the results depend on the processing

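Of the 23 members past the test, 13 stayed past it in each of 17 alternative fits, and all 23 kept their sign in every fit that included them. The 13 were atp6v1b1.L, atp6v0a1.L, atp6v0a4.L, atp6v0d2.L, atp6ap1.1.L, atp6ap2.S, atp12a.L, atp1b2.L, atp1b3.L, atp2a3.L, ca2.L, ca2.S and ca12.L. The other 10 were lost in at least 1 fit, and 4 of the 10 members not past the test passed in at least 1. With no filter on low values, V-ATPase members higher numbered 0 (1 as reported), P-type members higher 1 (2) and carbonic anhydrase members higher 0 (1). With the filter at the 60th percentile, 1 P-type and 0 carbonic anhydrase members were higher. The day as a block gave 5 P-type members lower (3), 15 V-ATPase members lower (13), and, of all probe sets, 2115 higher (1591) and 2057 lower (1684). Leaving out each array in turn gave 7 to 11 V-ATPase members lower (13) and 0 to 1 higher, 3 to 4 P-type members lower and 1 to 2 higher, and 3 carbonic anhydrase members lower and 0 to 1 higher. The other ion transport and regulator genes then numbered 9 to 15 lower (16) and 1 to 3 higher (2), and all probe sets 530 to 1547 higher (1591) and 883 to 1553 lower (1684); leaving out NICD 2 gave the lowest count in each of these 4. The cause of these losses was not tested, beyond that a fit without an array holds fewer samples. Signs turned for 2 members not past the test, atp6v1g1.S (-0.04 to 0.49 over the fits without 1 array) and atp2a1.S (-0.25 to 0.08). The replicate number as a block left 0 V-ATPase members higher and 9 lower. Lost with it were atp6ap1.2.S, atp6v1e1.L, atp6v0b.L, atp6v0d1.L and atp6v0e1.L. The labels do not say what a replicate number stands for. Same-numbered arrays had deviations that correlated at 0.2 (number 1, both of day 1) and -0.23 (number 2, of different days) across probe sets. With 2 NICD arrays, any 1 untreated array correlates with them at equal size and opposite sign by calculation, as untreated 2 did (0.23 with NICD 1). Quantile normalization and median centring changed no count of members by more than 1.5 times.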
